A study of Mus musculus with 8 samples.

Results

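The 45 genes described here make the machinery of DNA replication and mitosis. They were taken by their symbols, of 35397 gene symbols in the 3 deposited tables. The series set mouse hair follicle cells deleted for Bmpr1a, which encodes a receptor of the bone morphogenetic protein (BMP) pathway, against controls. Of the 45, 21 act in DNA replication and 24 in mitosis, and 43 were found in all 3 tables; Cdt1 and Gins2 were found in the tables of stem cells and of Shh-CreER progenitors and were not analysed in the third. Values are FPKM (fragments per kilobase of transcript, scaled to the total of mapped fragments), so levels of different genes can be set side by side.

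RNA sequencing covered 8 libraries of mouse hair follicle cells of mixed strain. Bulge stem cells (HFSC) of K15-CrePGR mice at postnatal day 68 gave 1 library deleted for Bmpr1a (labelled cKO) and 1 control library (labelled Het). Transit-amplifying cells (TACs) of Shh-CreER mice at day 68 gave 1 cKO and 1 Het library. TACs of hair bulbs of K15-CrePGR mice at day 80 gave KO samples 64 and 84 and WT samples 52 and 57. The deleted genotype is floxed Bmpr1a (fl/fl) with either driver, and the labels write the Cre driver beside Het and WT as well. K15-CrePGR is a Cre recombinase fused to a hormone-binding domain under a keratin 15 promoter, which is active in the bulge, and Shh-CreER is a tamoxifen-dependent Cre in cells that make Sonic hedgehog. The inducing treatment, the sorting of the cells, the pooling of animals and the alleles behind Het and WT are not stated in the labels.

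The labelled cell types were checked by their markers. The keratin gene Krt15 stood at 3075 FPKM in cKO and 7834 FPKM in Het HFSCs, against 62.5 to 341 FPKM in the 6 TAC libraries. Shh stood at 1.33 and 0.042 FPKM in cKO and Het HFSCs and at 111 FPKM in Het TACs of Shh-CreER mice. Bmpr1a itself lay between 31.8 and 46.0 FPKM in all 8 libraries, which checks no excision, since only part of the gene may be removed. Relative depth, read from the steps that 1 read makes in low FPKM, was 0.854 for cKO against Het HFSCs and 1.003 for cKO against Het Shh-CreER TACs. Against WT 52 it was 1.078 in KO 64, 0.911 in KO 84 and 1.135 in WT 57.

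Genes of the cell cycle are transcribed in waves. Replication genes such as those of the Mcm helicase are switched on by E2F factors when a cell commits to S phase, and mitotic genes such as cyclin B follow through the MuvB complex, which binds the cell cycle genes homology region (CHR) of their promoters, and through NF-Y at CCAAT boxes. In resting cells both sets are held down, and the amount of these transcripts in a tissue is widely used as a measure of how many cells are cycling. In the hair follicle BMP signalling is known for keeping bulge stem cells at rest, and the matrix TACs above the dermal papilla are among the fastest dividing cells of the adult.

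The promoters show part of this division. E2F-like words and the CHR differed between the 2 sets of genes, while CCAAT boxes were common in both. RefSeq promoter windows (build GRCm38.p6, 250 bases before to 50 after the start) were matched to 38 of the 45 genes; no window was matched for Mcm4, Gins1, Gins2, Ccna2, Foxm1, Aurkb and Tpx2. Both strands were searched for E2F-like words (TTTGGCGC, TTTCGCGC, TTTCCCGC or TTTGCCGC), for the CHR (TTTGAA or TTCGAA) and for the CCAAT box (CCAAT). An E2F-like word was in 8 of 20 windows of replication genes (40.0%) and 1 of 20 windows of mitotic genes (5.0%), beside 2.26% of all 32851 windows. A CHR was in 2 of 20 replication windows (10%) and 16 of 20 mitotic windows (80%), beside 19.2% of all windows. A CCAAT box was in 15 replication windows (75%) and 18 mitotic windows (90.0%), beside 37.4% of all. CHR and CCAAT stood together in 16 mitotic windows (80%) and 2 replication windows (10%), beside 7.52% of all windows. In 1 of the mitotic windows a CHR match overlapped a CCAAT match. These are matches of letters, and no binding was measured here.

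The 200 bases before the start, read 5′ to 3′ on the strand of the gene, are shown for 6 promoters, with all matches of the 3 motifs in capitals. Mcm5 (chr8:75109309-75109508, plus strand) and Mcm6 (chr1:128359706-128359905, minus strand) show E2F-like words, which at both genes overlap on opposite strands. Cdk1 (chr10:69352913-69353112, minus strand) was the mitotic gene whose window held an E2F-like word beside CHR and CCAAT. Kif11 (chr19:37376182-37376381, plus strand), Ube2c (chr2:164769729-164769928, plus strand) and Top2a (chr11:99024190-99024389, minus strand) show the CCAAT and CHR arrangement of mitotic genes with few and with many matches.
Mcm5: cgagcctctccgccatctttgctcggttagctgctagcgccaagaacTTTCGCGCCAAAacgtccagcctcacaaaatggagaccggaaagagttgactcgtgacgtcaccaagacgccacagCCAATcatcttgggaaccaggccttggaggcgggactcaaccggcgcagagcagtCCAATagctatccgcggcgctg
Mcm6: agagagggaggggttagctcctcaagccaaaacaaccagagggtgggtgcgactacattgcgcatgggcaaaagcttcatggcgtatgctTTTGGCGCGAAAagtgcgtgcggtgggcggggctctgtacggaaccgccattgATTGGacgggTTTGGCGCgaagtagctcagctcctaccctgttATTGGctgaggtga
Cdk1: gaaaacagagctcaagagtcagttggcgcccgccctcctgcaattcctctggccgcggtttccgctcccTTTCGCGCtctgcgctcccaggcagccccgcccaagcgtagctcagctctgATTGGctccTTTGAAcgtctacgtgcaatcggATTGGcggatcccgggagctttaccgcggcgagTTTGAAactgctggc
Kif11: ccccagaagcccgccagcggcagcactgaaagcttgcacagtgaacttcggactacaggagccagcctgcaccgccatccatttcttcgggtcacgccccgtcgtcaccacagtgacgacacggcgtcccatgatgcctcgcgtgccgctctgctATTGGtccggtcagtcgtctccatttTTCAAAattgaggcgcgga
Ube2c: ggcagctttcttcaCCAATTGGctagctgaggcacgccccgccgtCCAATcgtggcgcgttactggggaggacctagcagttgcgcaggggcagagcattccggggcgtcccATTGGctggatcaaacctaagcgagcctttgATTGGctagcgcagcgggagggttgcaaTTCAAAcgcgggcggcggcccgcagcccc
Top2a: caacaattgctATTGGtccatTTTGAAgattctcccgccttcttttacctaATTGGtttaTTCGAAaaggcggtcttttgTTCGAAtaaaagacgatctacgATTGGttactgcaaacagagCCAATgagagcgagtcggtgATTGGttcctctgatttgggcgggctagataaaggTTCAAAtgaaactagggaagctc

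**Figure D1:**
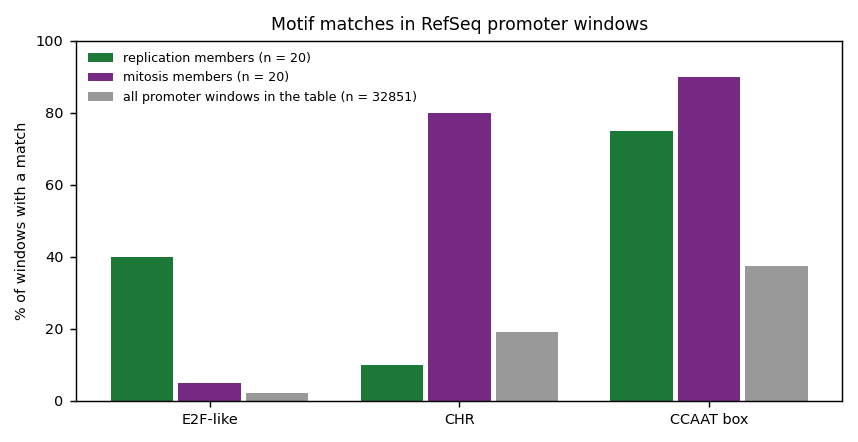
Share of RefSeq promoter windows of 300 bases with at least 1 match to each motif on either strand, in % of windows, for replication genes (20 windows), mitotic genes (20 windows) and all windows of the table (32851). E2F-like words are in 40.0% of replication windows and CHR matches in 80% of mitotic windows, beside 2.26% and 19.2% of all.

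In stem cells without Bmpr1a the whole set was higher. All 45 transcripts had higher values in the cKO than in the Het library, and 38 of the 45 (84.4%) were at least 2-fold higher on the log2(FPKM + 1) scale used throughout for differences, on which 5.92% of 12214 genes (mean of 1 FPKM or more) were at least 2-fold higher, 4.6% at least 2-fold lower and 54.3% higher by any amount. No member was at least 2-fold lower. With a pseudocount of 5, which shrinks the differences of low genes, the count was 19 of 45, beside 2.48% of all genes. The median log2 difference was 1.4 over the 45 members, with quartiles of 1.11 and 1.58, and 0.05 over all genes. There was 1 library per genotype, so no test was possible and no difference has a replicate check. All 45 passed the expression filter, and Mcm10, Cdc6 and Bub1 lay below 1 FPKM in the Het library.

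Other measured differences between the libraries stood beside this result. Xist, transcribed from the inactive X of female cells, was at 3.98 FPKM in cKO and 68.9 FPKM in Het HFSCs. Ddx3y, on the Y chromosome, was at 23.2 FPKM in cKO and 0.255 FPKM in Het, so the libraries also differed in sex-linked transcripts, and sex and genotype cannot be told apart. The direct BMP target Id3 was at 116 FPKM in cKO and 447 FPKM in Het. It was also lower in both TAC tables, at 221 FPKM in cKO and 562 FPKM in Het Shh-CreER TACs. In K15-CrePGR TACs Id3 was at 184 and 112 FPKM in KO 64 and KO 84, against 573 and 315 FPKM in WT 52 and WT 57. In bulk RNA, more cycling cells and more transcript per cycling cell cannot be told apart.

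Mitotic genes had wider gaps than replication genes; the difference between the 2 sets was not tested. Of the 24 mitotic genes 23 were at least 2-fold higher in cKO (95.8%, median log2 difference 1.52), and of the 21 replication genes 15 were (71.4%, median 1.25). On the FPKM scale 20 mitotic and 5 replication genes were at least 3-fold higher. The summed level of the mitotic genes was 375 FPKM in cKO and 112 FPKM in Het, and that of the replication genes 844 and 375 FPKM, a sum of which Pcna made the largest part.

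**Figure D2:**
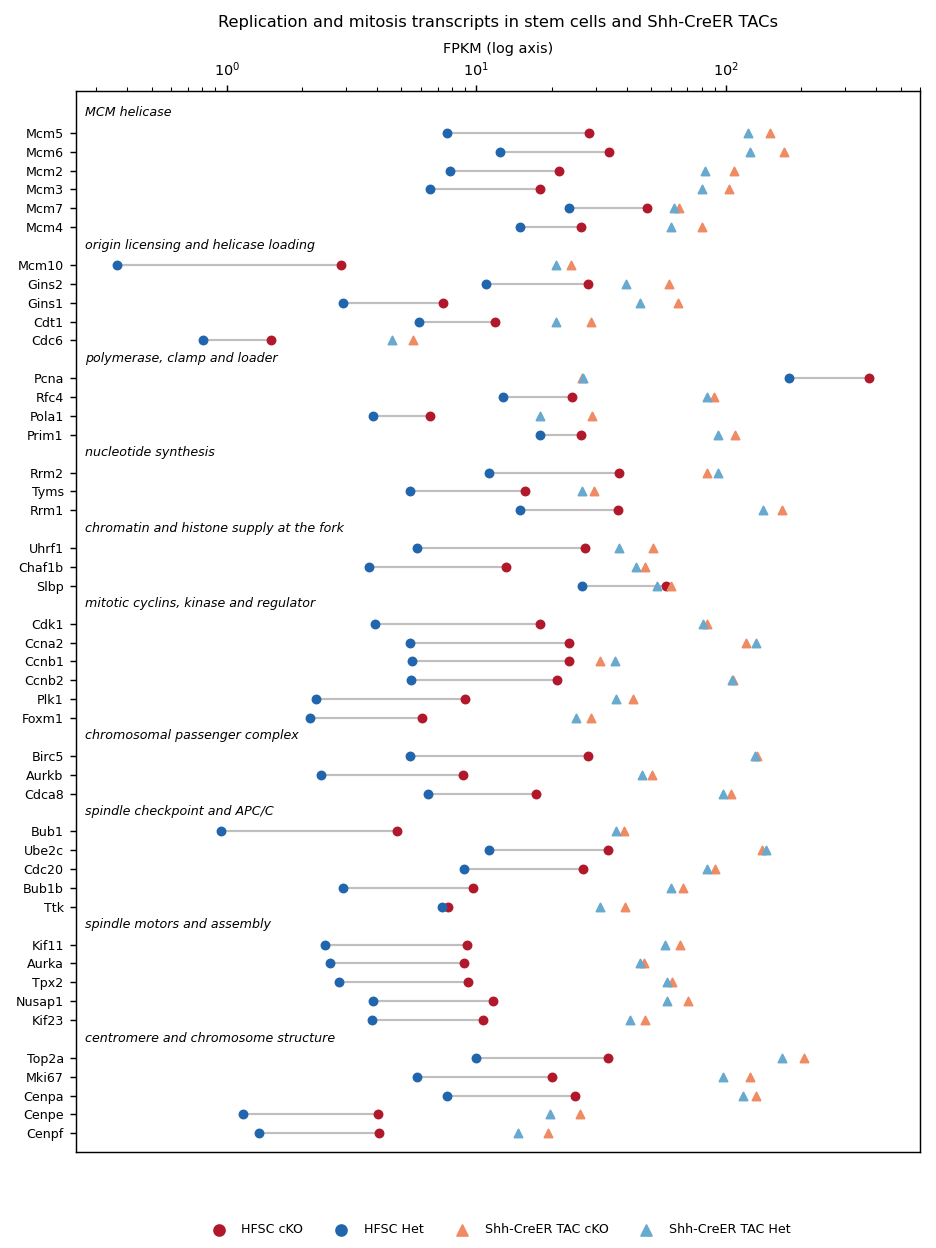
Level of each of the 45 genes in FPKM (log axis), by role, in HFSC cKO (red circles), HFSC Het (blue circles), Shh-CreER TAC cKO (orange triangles) and Shh-CreER TAC Het (light blue triangles), 1 library each. The red circle lies right of the blue one for all 45 genes and left of both triangles for all but Pcna and Slbp.

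Among the replication genes, the subunits of the Mcm helicase, which unwinds DNA at the fork, were higher in all 6 cases (median log2 difference 1.34). Mcm5 stood at 28.3 FPKM in cKO and 7.65 FPKM in Het (log2 difference 1.76), the widest gap of the 6. Mcm4 stood at 26.2 and 15 FPKM (log2 difference 0.77), the narrowest, and Mcm7 at 48.2 and 23.5 FPKM lay at the 2-fold line itself. The subunits work as 1 ring, and their Het levels ran between 6.52 FPKM for Mcm3 and 23.5 FPKM for Mcm7.

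Of the factors that license origins and start the helicase, 3 of 5 were at least 2-fold higher. Mcm10, which helps to activate the loaded helicase, was at 2.86 FPKM in cKO and 0.364 FPKM in Het (log2 difference 1.5). Cdc6, the loader of the helicase, was at 1.5 and 0.805 FPKM (log2 difference 0.47), the lowest level of any member in cKO. The licensing factor Cdt1 was at 11.9 and 5.87 FPKM and the helicase cofactors Gins1 and Gins2 had log2 differences of 1.09 and 1.29.

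The polymerase group differed least, with 1 of 4 at least 2-fold higher and a median log2 difference of 0.75. The primase subunit Prim1 stood at 26.3 FPKM in cKO and 17.9 FPKM in Het (log2 difference 0.53), and the catalytic subunit of polymerase alpha, Pola1, at 6.52 and 3.87 FPKM (0.63). The sliding clamp Pcna stood at 372 and 179 FPKM (1.05), the highest level of any member in either HFSC library. Pcna has near-identical processed copies. In the K15-CrePGR table Pcna-ps2 was listed at 152 to 219 FPKM and Pcna-ps1 at 0.0 FPKM in every library. Reads may have been divided between Pcna and its copies, so the levels of Pcna are uncertain.

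All 3 nucleotide synthesis genes and all 3 genes of chromatin and histone supply were at least 2-fold higher. Rrm2, the regulated subunit of ribonucleotide reductase, stood at 37.4 FPKM in cKO and 11.2 FPKM in Het (log2 difference 1.65), and its partner Rrm1 at 36.9 and 14.9 FPKM (1.25). Uhrf1, which brings the maintenance DNA methyltransferase to new DNA, stood at 27.2 and 5.76 FPKM (log2 difference 2.06), the widest gap among the replication genes. Slbp, which binds the stem-loop of histone messenger RNAs, stood at 57.7 and 26.6 FPKM (1.09).

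Among the mitotic genes, the 6 cyclins, kinases and the regulator Foxm1 were all at least 2-fold higher, with a median log2 difference of 1.84. The cyclin-dependent kinase Cdk1 (mm9 chromosome 10, 68797961 to 68815686, the locus in the K15-CrePGR table) stood at 18.0 FPKM in cKO and 3.91 FPKM in Het (log2 difference 1.95). Its cyclins were close to it: Ccna2 differed by 1.93, Ccnb1 by 1.91 and Ccnb2 by 1.77. Foxm1, a transcription factor of mitotic genes, had the smallest gap, at 6.04 and 2.16 FPKM (log2 difference 1.16).

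Birc5, the survivin subunit of the chromosomal passenger complex, had the widest gap of all 45, with 28.1 FPKM in cKO and 5.44 FPKM in Het (log2 difference 2.18). The other subunits of that complex, the kinase Aurkb and the borealin gene Cdca8, differed by 1.54 and 1.32. In the spindle checkpoint and the anaphase-promoting complex, 4 of 5 differed by 1.45 to 1.58, among them the checkpoint kinase Bub1 at 4.82 and 0.948 FPKM. The fifth was the single exception among the mitotic genes. Ttk, the kinase that starts the spindle checkpoint, stood at 7.67 FPKM in cKO and 7.29 FPKM in Het (log2 difference 0.06); its Het level was above those of Bub1 and Bub1b (2.93 FPKM), while in the TAC libraries it lay below Bub1b.

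The 5 genes of spindle motors and assembly had log2 differences between 1.27 and 1.55. The bipolar spindle motor Kif11 stood at 9.16 FPKM in cKO and 2.48 FPKM in Het, and the cytokinesis motor Kif23 at 10.6 and 3.82 FPKM. Of the centromere and chromosome genes, the topoisomerase Top2a stood at 33.6 and 10 FPKM (log2 difference 1.65) and the proliferation marker Mki67 at 20.1 and 5.8 FPKM (1.64). The kinetochore gene Cenpf, at 4.06 and 1.35 FPKM, had the smallest gap of these (1.11).

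**Figure D3:**
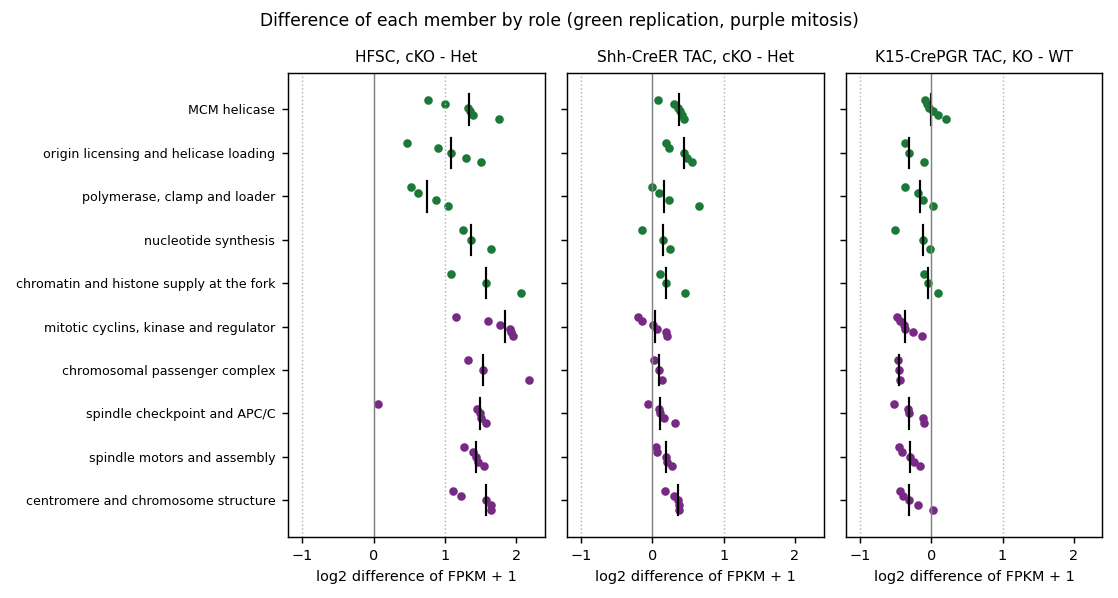
Log2 difference of FPKM + 1 for each gene by role, deleted minus control, in HFSC (left), Shh-CreER TACs (middle) and K15-CrePGR TACs (right); dots are genes, black bars are medians and dotted lines mark 2-fold. The 45 HFSC differences lie between 0.06 and 2.18, and in both TAC panels every gene lies inside 2-fold.

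Other genes of the same phases were also mostly higher. In cKO HFSCs 47 of 64 other G2 and M phase genes passed 2-fold upward and none downward (median log2 difference 1.33), and of 39 other S phase genes 12 passed it upward and none downward (median 0.82). Pbk, a mitotic kinase, stood at 19.7 FPKM in cKO and 3.75 FPKM in Het, and Tk1, the salvage thymidine kinase, at 34.9 and 7.65 FPKM. Where the mean reached 5 FPKM, Depdc1a (2.13) and Spc25 (2.04) were, with Pbk, the 3 widest gaps of the G2 and M phase list. Asf1b (1.71) and Hells (1.51) were, with Tk1, those of the S phase list. All of these but Tk1 lay below 5 FPKM in Het and reached that mean through their cKO values, so the filter favoured wide upward gaps. The phosphatase gene Cdc25b, at 18.7 and 30.9 FPKM, was the 1 gene of these lists with the lower value in cKO.

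The constitutive partners of the same machines had smaller gaps. Of 22 such genes, of the origin recognition complex, the anaphase-promoting complex and cohesin with the checkpoint gene Bub3, none differed 2-fold, and 20 had the higher value in cKO (median log2 difference 0.26). The 2 with a lower value were Anapc13 and Anapc2. Anapc13 stood at 107 FPKM in cKO and 109.8 FPKM in Het, and Anapc2 at 45.6 and 48.3 FPKM. Orc4 (0.58), Bub3 (0.56) and Cdc27 (0.52) had the widest gaps of the list. Of 18 genes of the E2F factors, pocket proteins and MuvB complex, 2 were at least 2-fold higher and none lower (median 0.48). The 2 were E2f1, at 7.41 and 2.41 FPKM, and Mybl2, at 3.84 and 0.9 FPKM, both named after their values were seen. Tfdp1, Rbl1 and Rbbp4 had log2 differences of 0.76, 0.73 and 0.69. The pocket protein gene Rbl2, typical of resting cells, stood at 13.4 and 17.7 FPKM (-0.38), and the MuvB genes Lin37 (-0.18) and Lin52 (-0.15) also had lower values in cKO.

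How far the deleted stem cells lay from progenitors was read against the control TACs. The median level of the 45 genes was 18.0 FPKM in cKO HFSCs and 5.51 FPKM in Het HFSCs, beside 58.0 FPKM in Het Shh-CreER TACs. The tables were normalized separately, so levels across them are set side by side without a test. Het TACs had the higher value than Het HFSCs for 44 of 45 genes, all but Pcna (26.8 against 179 FPKM). For these 44, the cKO HFSC library lay at a median of 41.1% of the log2 distance (quartiles 37.5% and 48.1%), which is 17.2% of the distance in FPKM.

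Most genes stood at a like place on this scale. The 5 spindle motor and assembly genes lay between 36.1% and 40.5% of the log2 distance and the 5 centromere and chromosome genes between 37.3% and 42.5%. Past the midpoint lay 8 of the 44 genes, 7 of them replication genes and 1 mitotic, Ccnb1 (76.3%). The replication genes were Slbp (114%), Uhrf1 (82.6%), Mcm7 (74.2%), Gins2 (72.9%), Tyms (65.1%), Rrm2 (56.4%) and Cdt1 (54.5%), and Slbp alone was higher in cKO HFSCs than in Het TACs (57.7 and 52.7 FPKM). At the other end lay Ttk (3.26%) and Prim1 (22.8%). With the mean of the K15-CrePGR WT samples as the TAC level 17 of 42 genes lay past the midpoint (median 47.4%), and 23 of 42 when both tables were also scaled to equal medians (median 51.1%).

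Markers of the progenitors were read in the same HFSC libraries. The 9 hair shaft keratins were each higher in cKO, with a sum of 19.9 FPKM in cKO and 0.948 FPKM in Het HFSCs. Het TACs had a sum of 5329.9 FPKM, which places the cKO library at 0.356% of the FPKM distance. The 5 keratins with a mean of 1 FPKM or more, reached through their cKO values, had a median log2 difference of 1.54. That filter kept only keratins that were high in cKO, so this value cannot be compared with the 1.4 of the 45 members. Places in this paragraph are shares of the FPKM distance and were not read on the log2 scale, where low levels count for more. The 10 matrix TAC markers summed to 81.7 and 47.8 FPKM beside 864 FPKM in Het TACs (4.16%), with 6 higher and 4 lower in cKO. Their median place on the FPKM scale was 1.07%, beside 17.2% for the replication and mitosis genes, which lay at 41.1% on the log2 scale. The sums of both lists were themselves lower in cKO than in Het Shh-CreER TACs, at 498 FPKM for the shaft keratins and 553 FPKM for the matrix markers. Of the 10 matrix markers 4 were higher and 6 lower in that cKO library. Against that library, in a comparison chosen after the data were seen, the cKO HFSC library lay at 3.82% of the distance of the keratin sum (median of the keratins 8.68%) and at 6.73% for the matrix markers (median 1.16%), and the members lay at a median of 14.5%. Hoxc13 was then higher in cKO HFSCs (28.7 FPKM) than in cKO TACs (14.9 FPKM), as was Ptch1 (15.1 and 12.1 FPKM). Against Het TACs, Shh was at 1.16%, Lef1 at 0.989%, Edar at 6.41%, Hoxc13 at 13.2% and Ctsc at 48.1%. Ctsc stood at 24.9 FPKM in cKO and 7.55 FPKM in Het HFSCs. Msx1, Msx2, Dlx3 and Foxn1 had lower values in cKO. Ptch1 stood at 15.1 FPKM in cKO and 7.88 FPKM in Het HFSCs, beside 10.7 FPKM in Het TACs. Of the 10 bulge markers 5 were at least 2-fold lower and 1 higher in cKO.

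Markers of other cell types were read in both HFSC libraries. Endothelial markers summed to 0.655 FPKM in cKO and 0.289 FPKM in Het HFSCs, and those of fibroblasts and dermal papilla to 6.87 and 9.99 FPKM. Melanocyte markers summed to 37.9 and 5.33 FPKM, with 4 of 6 genes at least 2-fold higher in cKO, and immune markers to 68.6 and 168 FPKM, with 3 of 6 at least 2-fold lower. Muscle markers summed to 4.37 FPKM in both. The part of these cell types in the result was not tested.

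**Figure D4:**
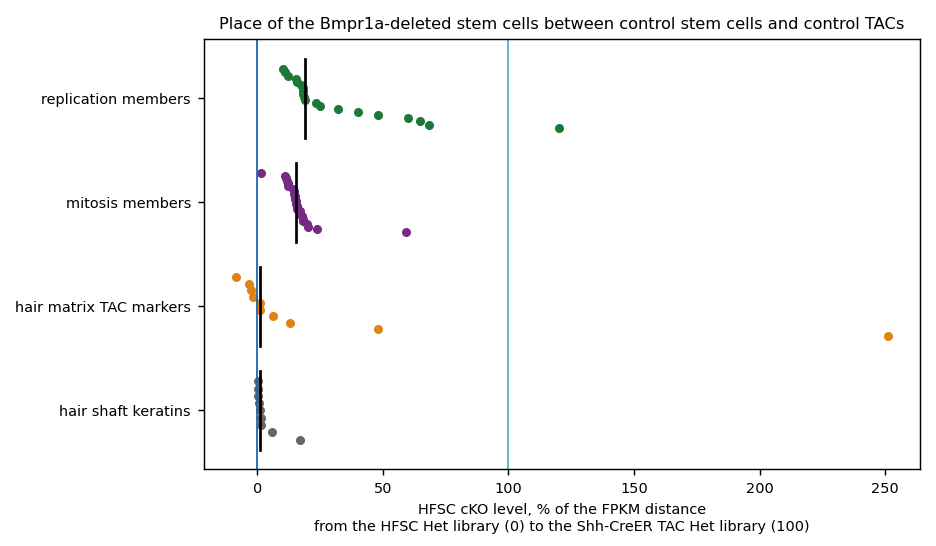
Place of the HFSC cKO library on the FPKM distance from the HFSC Het library (0%) to the Shh-CreER TAC Het library (100%), in %, for 20 replication genes, 24 mitotic genes, 10 matrix TAC markers and 9 hair shaft keratins; dots are genes and black bars medians. Replication and mitotic genes have medians of 18.9% and 15.4%, and the 2 marker lists 1.07% and 1.19%. The marker lists were not placed on the log2 scale, on which the replication and mitosis genes together had a median of 41.1%.

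In TACs that lost Bmpr1a through Shh-CreER, no member differed 2-fold in either direction. Gaps of that size were rare among all 12297 genes, with 328 upward (2.67%) and 340 downward. With so few, their absence among 45 members does not set the members apart from other genes. Small differences pointed mostly up: 40 of 45 genes (88.9%) had the higher value in cKO, beside 51.2% of all genes, with a median log2 difference of 0.19, against 0.01 over all genes. The count was 38 with median scaling and 41 with upper quartile scaling. With 1 library per genotype there was no test. Of the marker lists, hair shaft keratins summed to 498 FPKM in cKO and 5329.9 FPKM in Het, and skeletal muscle to 31.3 and 154 FPKM. Matrix TAC markers summed to 553 FPKM in cKO and 864 FPKM in Het, with 4 of 10 genes higher in cKO and 6 lower. Melanocyte markers summed to 23.9 and 94.0 FPKM, and immune markers to 192 and 231 FPKM. Endothelial markers summed to 29.7 and 17.4 FPKM, fibroblast and dermal papilla markers to 951 and 808 FPKM, and bulge markers to 232 and 153 FPKM. Their part in the small differences was not tested.

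The median log2 difference was 0.25 for replication (19 of 21 higher) and 0.15 for mitosis (21 of 24 higher), and the difference between the 2 sets was not tested. By role it ran between 0.44 for origin licensing and 0.03 for the mitotic cyclins, kinases and Foxm1, with 0.36 for the mitotic genes of the centromere and chromosome. The 3 widest gaps were those of Pola1, at 29.1 FPKM in cKO and 18.0 FPKM in Het (log2 difference 0.66), Gins2, at 58.8 and 39.6 FPKM (0.56), and Gins1, at 64.2 and 45.4 FPKM (0.49). All 6 Mcm helicase subunits had higher values in cKO, with log2 differences of 0.08 to 0.44. At the lower end stood Ccnb1, at 31.2 and 36.0 FPKM (-0.2), Ccna2, at 119.6 and 132 FPKM (-0.14), and Rrm2, at 84 and 92.4 FPKM (-0.14). Pcna and Ube2c were the other genes with a lower value in cKO.

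Of the other S phase genes 35 of 39 and of the other G2 and M phase genes 53 of 64 had the higher value in cKO (medians 0.21 and 0.17), with none past 2-fold. Of the constitutive subunits 11 of 22 were higher (median 0.0), and of the E2F, pocket protein and MuvB genes 13 of 19 (median 0.12).

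TACs from K15-CrePGR hair bulbs had 2 samples per genotype, so a test could be made. None of the 43 members passed an adjusted p of 0.05 in limma (log2(FPKM + 1), empirical Bayes, Benjamini-Hochberg over 13565 loci), where 0.0663% of all loci did (9 of 13565). The smallest adjusted p of a member was 0.261. At an unadjusted p under 0.05, 5 members were lower in KO (11.6%, beside 7.08% of all loci) and none higher; without the intensity trend 3 members reached that level and with quantile normalization 1. The share of all loci at that unadjusted level was counted in the main setting only. Leaving out 1 library gave a median log2 difference of the members between -0.39 (without WT 52) and -0.05 (without WT 57). By direction alone, 37 of 43 members (86.0%) had the lower mean in KO, beside 52.7% of loci, with a median log2 difference of -0.24 against -0.03 over all loci.

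Mitotic and replication genes parted in these samples. For 17 of 24 mitotic genes (70.8%) both KO samples lay below both WT samples, as did 1 of 19 replication genes (5.26%), beside 27.5% of all loci. No member had both KO samples above both WT samples, while 26.8% of loci did. The median log2 difference was -0.34 for mitotic genes and -0.08 for replication genes, the second becoming 0.01 with quantile normalization, 0.16 without WT 57 and 0.03 without KO 64. Without KO 84 the medians were -0.2 for mitotic and -0.15 for replication genes, and without WT 57 the mitotic median was -0.22. The difference between the 2 sets of genes was not tested. Of the members, 18 combined a value at least 2-fold higher in cKO HFSCs with both KO samples below both WT samples here, as did 1.28% of the 11134 symbols tested in both tables; the HFSC result already holds 38 of the 45 members past 2-fold.

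The 5 members with the smallest p among those without overlap were all mitotic. Ccnb2 stood at 49.9 and 52.8 FPKM in KO samples 64 and 84, against 66.0 and 78.9 FPKM in WT samples 52 and 57 (log2 difference -0.48 ± 0.16 SE, limma adjusted p = 0.261). The centromeric histone gene Cenpa stood at 88.4 and 83.4 FPKM in KO, against 119 and 113 FPKM in WT (-0.43 ± 0.14 SE, limma adjusted p = 0.262). For both genes the KO samples lay close together and below both WT samples. Nusap1, a microtubule-bundling gene, stood at 43.7 and 44.7 FPKM in KO, against 55.8 and 66.3 FPKM in WT (-0.45 ± 0.16 SE, limma adjusted p = 0.268). Cdk1 stood at 159.8 and 162 FPKM in KO, against 208 and 231 FPKM in WT (-0.44 ± 0.16 SE, limma adjusted p = 0.275). Cdca8 stood at 59.3 and 58.1 FPKM in KO, against 72.9 and 90.4 FPKM in WT (-0.46 ± 0.17 SE, limma adjusted p = 0.286). None of the 5 passed the adjusted threshold.

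Outside these 5, Ube2c and Tyms had the lowest differences. Ube2c, the ubiquitin-conjugating enzyme of the anaphase-promoting complex, stood at 98.6 and 58.4 FPKM in KO, against 106 and 113 FPKM in WT (log2 difference -0.52, limma adjusted p = 0.409); without KO 84 the difference was -0.15 and without KO 64 -0.89. Tyms, thymidylate synthase, stood at 97.3 and 101 FPKM in KO, against 121 and 164 FPKM in WT (-0.5, limma adjusted p = 0.309), and was the replication gene without overlap; its difference ran between -0.72 without WT 52 and -0.28 without WT 57. At the upper end stood Mcm4 (0.21), Mcm2 (0.1) and Uhrf1 (0.09), whose KO values lay between those of the 2 WT samples: Mcm4 was at 47.8 and 46.0 FPKM in KO, against 33.5 and 49.0 FPKM in WT.

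**Figure D5:**
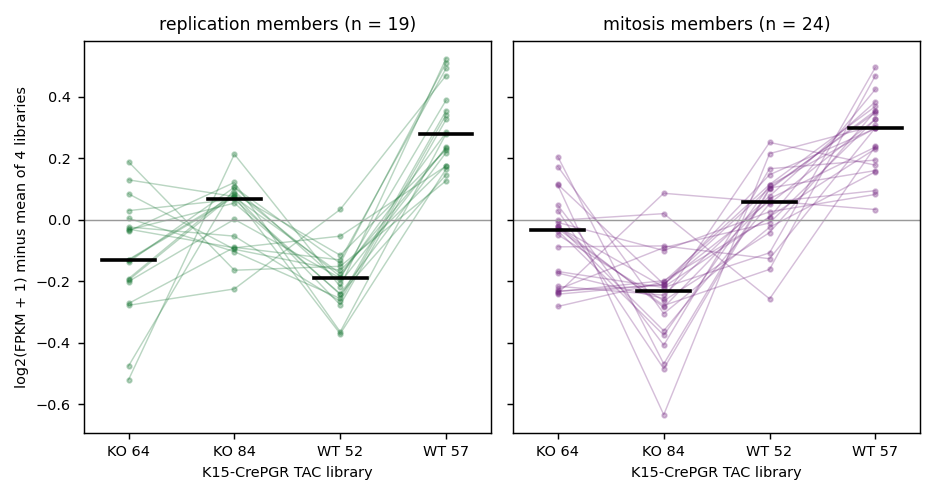
Log2(FPKM + 1) of each gene minus its mean over the 4 K15-CrePGR TAC libraries, for 19 replication genes (left) and 24 mitotic genes (right), in KO 64, KO 84, WT 52 and WT 57; thin lines are genes and black bars medians. WT 57 is the highest library for 18 of 19 replication and 20 of 24 mitotic genes.

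The control samples also differed from each other. WT 57 had a higher value than WT 52 for 41 of 43 members and all 19 replication genes, whose median log2 gap was 0.47; the mitotic genes had 0.23. Against WT 52, KO 84 was higher for 16 of 19 replication genes and lower for 21 of 24 mitotic genes; against WT 57 it was lower for all 43. Without WT 57 the median log2 difference of the members was -0.05, beside -0.01 over all loci. Without WT 52 it was -0.39, beside -0.03 over all loci. Xist was at 209.7 and 226 FPKM in KO 64 and KO 84, against 3.26 FPKM in WT 52 and 175 FPKM in WT 57, so WT 52 differed from the other samples in sex-linked transcripts.

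Markers of other cells differed between the genotypes in these hair bulbs. Fibroblast and dermal papilla markers summed to 1500.5 and 465 FPKM in KO 64 and KO 84, against 408 and 432 FPKM in WT 52 and WT 57, with 9 of 9 higher by mean. Immune markers summed to 973 and 168 FPKM in KO, against 119 and 25.5 FPKM in WT, and endothelial markers to 26.7 and 3.52 FPKM, against 2.7 and 1.15 FPKM. Melanocyte markers (118 and 37.0 FPKM in KO, against 26.5 and 24.5 FPKM in WT) and bulge markers (531 and 644 FPKM, against 151 and 204 FPKM) were higher in both KO samples. Hair shaft keratins summed to 835 and 662 FPKM in KO, against 2885 and 2407 FPKM in WT, and matrix TAC markers to 673 and 477 FPKM, against 795 and 645 FPKM. Of the 10 matrix markers, 3 had both KO samples above both WT samples and 4 had both below. Their part in the lower mitotic values was not tested.

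Other genes of the cell cycle were counted in the same way, beside the 27.5% of all loci with both KO samples lower. Both KO samples lay below both WT samples for 30 of 64 other G2 and M phase genes, 8 of 39 other S phase genes, 10 of 19 E2F, pocket protein and MuvB genes and 8 of 22 constitutive subunits (median log2 differences -0.22, -0.17, -0.23 and -0.14). The opposite held for 1, 1, 1 and 0 of them, and limma called none of them at an adjusted p of 0.05.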

How the data were processed

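The deposited values are FPKM, 1 column per library, which the authors made with TopHat and Cufflinks on the mouse build mm9, per the submitters' processing notes; tool versions, strand and depth are not given there or in the labels. The 3 tables were normalized separately. Repeated symbols were reduced to the entry with the highest mean, and a locus that joins several genes (Mcm7 with 2 microRNAs, Foxm1 and Top2a with others) stood for each. Of 45930 loci in the K15-CrePGR data, 8904 carry no name and hold 78.4% to 79.0% of summed FPKM; they were left out. Summed FPKM ranged between 474109 and 649180 in the other tables.

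Differences are of log2(FPKM + 1), which understates low genes, for genes that average 1 FPKM or more. The K15-CrePGR samples were compared with limma 3.58.1 (two-sided, intensity trend) in R 4.3.3, which was tested on simulated data; other tables hold 1 library per genotype and were not tested. Whether each K15-CrePGR sample is its own animal is not stated, and p-values cover only the spread among these 4 libraries. The members, the gene lists and the tests were chosen with earlier results of these data known. Values were given for the members with the widest and narrowest HFSC difference of each role, the 3 highest and 3 lowest of each table and the 5 without overlap of smallest p; per pathway list, up to 3 genes each way with a mean of 5 FPKM or more. Further genes were chosen after their values were seen. Tables and figures used Python 3.11.15, pandas 2.3.3 and matplotlib 3.10.9.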

Additional observations from a re-analysis of the deposited data

Results flagged for a closer look

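Members with opposite signs in stem cells and in hair bulbs are listed here. The HFSC result already holds 38 of the 45 members past 2-fold, beside 5.92% of all genes. In K15-CrePGR TACs both KO samples lay below both WT samples for 18 of 43 members (41.9%), beside 27.5% of all loci. These 18 were each at least 2-fold higher in cKO HFSCs, a pair of results that 1.28% of 11134 symbols tested in both tables had. None passed the adjusted threshold in TACs, and the HFSC differences had no test. Of these 17 were mitotic genes. Among them the log2 difference in TACs was -0.44 for Cdk1, -0.46 for Cdca8, -0.52 for Ube2c, -0.48 for Ccnb2, -0.43 for Cenpa and -0.45 for Nusap1, and it was -0.5 for the replication gene Tyms, against 1.95, 1.32, 1.51, 1.77, 1.58, 1.4 and 1.37 in HFSCs. The difference between the contrasts was not tested, since the HFSC table has 1 library per genotype and the tables were normalized separately.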

How the results depend on the processing

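No paired analysis was possible because the K15-CrePGR groups share no sample number and the other tables hold 1 library per genotype. In HFSCs no named difference turned its direction, and the count at least 2-fold higher was 19 with a pseudocount of 5, which shrinks low genes. With K15-CrePGR WT as the TAC level, 17 members lay past the midpoint (chosen after seeing the data), and 23 with median scaling as well; median scaling alone gave 12, and cKO Shh-CreER TACs as the level, also added later, gave 7. In K15-CrePGR TACs no member passed the adjusted threshold in any setting, with the smallest adjusted p between 0.154 and 0.775. Leaving out 1 library gave 18 to 39 members with KO below WT and 0 to 12 above, and a median for replication genes of -0.28 to 0.16 (0.01 with quantile normalization). In these fits the lone sample is assumed to vary like the other group. Likewise Mcm4 ranged between -0.06 and 0.47, Mcm2 between -0.1 and 0.29, Uhrf1 between -0.24 and 0.41, Ube2c between -0.89 and -0.15 and Tyms between -0.72 and -0.28. Depth is not given, so counting error of low genes such as Cdc6 is not known.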
